A study of Gallus gallus with 8 samples.

Results

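Chromosome 27 is a small chromosome of the chicken, and its accessible sites were described here in 4 cell types. The members are all peaks of the 4 deposited ATAC-seq lists that carry 27 as their chromosome, 1175 of 53397 peaks in all. They were selected on the authors' peak calls, and the chromosome was picked with the peak counts of these lists known, so the counts below are a description. They were set beside the 559 peaks of chromosome 26 and the 603 peaks of chromosome 28, the small chromosomes next to it in number. ATAC-seq marks open DNA by where the Tn5 transposase can cut and tag it, and a peak is a stretch with more insertions than its surroundings. The study has 8 wild-type samples, 2 of each cell type: the HD3 line of chicken erythroblasts (red cell precursors, 1 line grown in culture), primary red blood cells of embryonic day 10, primary red blood cells that came from hens of 28 to 38 weeks, here called adult, and primary fibroblasts grown in culture as the cells outside the red cell lineage. Each cell type has 1 list, and it is not stated whether a list was made from both of its samples or from 1 of them. The peak names begin with the cell type and what reads as a digit, 2 in the HD3, embryonic and adult lists and 1 in the fibroblast list. A list may thus stand for a single sample. The word CLEANED follows in the names of the embryonic, adult and fibroblast lists and is absent from those of HD3, with no word on what it means. Whether the animals were pooled is not given in the sources used here. For 1 of the 2 adult samples the labels name a lane run on another sequencing instrument, and the part of this in the adult values was not tested. No value below therefore has a replicate error or a test, differences between lists or chromosomes are descriptions, and intervals reflect nothing but the counting of peaks or regions. Read depth is unknown, because peak lists hold no read counts.

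Birds have a few large chromosomes and many small ones, and the small ones are rich in genes and in G and C bases. Red blood cells of birds keep their nucleus, which becomes compact and largely silent as the cells mature. Chromosome 27 is known for the HOXB cluster of body-plan genes, for a row of type I keratin genes, and for a tandem array of feather keratin genes, in which many near-identical copies follow each other. The RefSeq annotation of the assembly GRCg7b lists 410 genes on it. Among them are SLC4A1, which encodes the band 3 anion exchanger of the red cell membrane, ITGA2B, an integrin subunit of platelets and thrombocytes, COL1A1, a chain of type I collagen made by fibroblasts, and HEXIM1, an inhibitor of the kinase that releases paused RNA polymerase II. It also lists 9 symbols that start with HOXB and 9 that start with KRT. The peak lists are on another build, GRCg6a per the submitters' processing notes, so no peak was assigned to a gene, the labelled cell types could not be checked against the accessibility of their marker genes, and all positions below are those of the lists.

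The 4 lists differed widely in how many peaks they had on chromosome 27. The HD3 erythroblast list had 121 peaks, the embryonic red blood cell list 180, the adult red blood cell list 365 and the fibroblast list 509. Up to the last position that any list reached, 8076876, these numbers correspond to 14.98, 22.3, 45.2 and 63.0 peaks per Mb in the same order of cell types. The adult list had 2.03 times and the fibroblast list 2.83 times the number of the embryonic list, and the HD3 list had the fewest. On chromosome 26 the order was another one, with 20.1 peaks per Mb in HD3 erythroblasts, 34.7 in embryonic cells, 26.8 in adult cells and 19.5 in fibroblasts. Chromosome 28 had 20.8, 39.0, 33.9 and 24.5 peaks per Mb, so that on both neighbours the embryonic list was the densest.

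Within a list, the density on chromosome 27 can be set against that on the other chromosomes. In fibroblasts it was 3.23 times that of chromosome 26 and 2.57 times that of chromosome 28, and in adult red blood cells 1.69 and 1.33 times. In embryonic red blood cells it was 0.642 and 0.572 times those densities, and in HD3 erythroblasts 0.747 and 0.722 times. Among 34 chromosomes, chromosome 27 ranked 3 by peak density in fibroblasts, 6 in adult cells, 14 in embryonic cells and 15 in HD3 erythroblasts. It held 1.03% of the HD3 list, 1.43% of the embryonic list, 3.20% of the adult list and 2.88% of the fibroblast list. The higher number in fibroblasts than in adult cells depends on the length of the lists: with all lists shortened to their 11395 peaks of highest −log10 p, 119 HD3, 170 embryonic, 365 adult and 371 fibroblast peaks lay on chromosome 27.

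**Figure D1:**
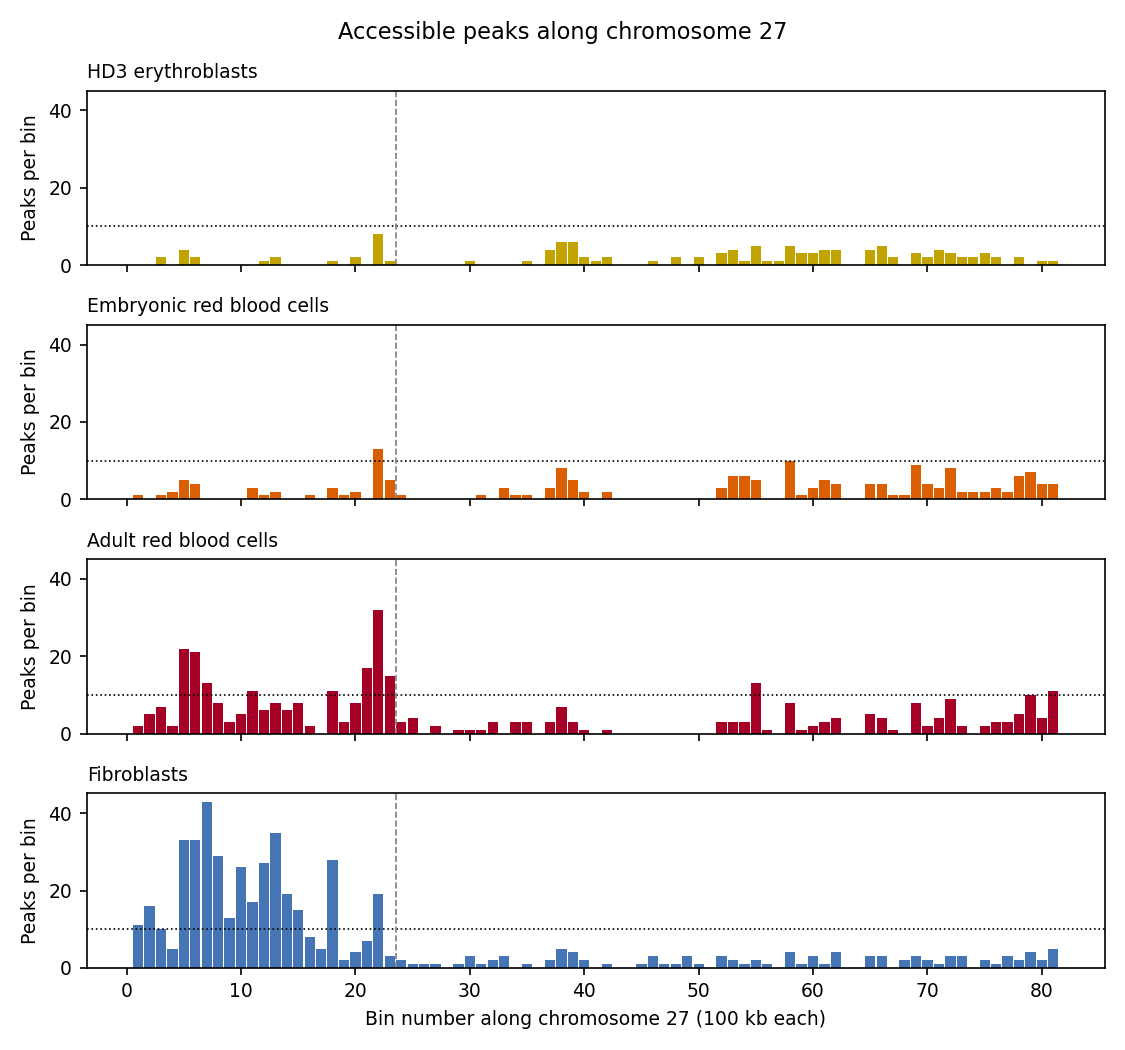
Number of peaks per 100 kb bin along chromosome 27 in each of the 4 lists; the horizontal axis counts bins from the start of the chromosome, the dotted line marks 10 peaks and the dashed line the end of the first 2.3 Mb. Fibroblast bins reach 43 peaks and adult red blood cell bins 32 before the dashed line, and after it no bin exceeds 13 in any list.

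Counted in 100 kb bins by the position of the summit, the point of highest signal of a peak, the peaks were unevenly spread. A bin with at least 10 peaks was called dense. No HD3 erythroblast bin of 81 was dense, against 0.0571% of the bins of the whole genome. In embryonic red blood cells 2 bins were dense (2.47%, genome 0.637%), in adult red blood cells 11 (13.6%, genome 1.25%) and in fibroblasts 16 (19.8%, genome 1.94%). All 16 dense fibroblast bins and 8 of the 11 dense adult bins lay in the first 2.3 Mb. The other 3 adult bins held 13 peaks between 5400001 and 5500000, 10 between 7800001 and 7900000 and 11 between 8000001 and 8100000. Some bins lay close to the threshold: 1 bin each of the embryonic, adult and fibroblast lists had exactly 10 peaks, and the fullest bin below it had 8 peaks in HD3 erythroblasts, 9 in embryonic cells, 9 in adult cells and 8 in fibroblasts. Chromosomes 26 and 28 had 0 dense HD3 bins and 2 dense embryonic bins each, 3 and 2 dense adult bins, and 1 and 2 dense fibroblast bins, out of 56 and 52 bins.

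The lists did not have their dense bins in the same places. Of 22 bins dense in any list, 6 were dense in adult cells and fibroblasts alike, 5 in adult cells and not in fibroblasts, and 10 in fibroblasts and not in adult cells. The fullest fibroblast bin, from 600001 to 700000, had 0 HD3, 0 embryonic, 13 adult and 43 fibroblast peaks. The next, from 1200001 to 1300000, had 2 HD3, 2 embryonic, 8 adult and 35 fibroblast peaks. In both bins the HD3 and embryonic lists had few peaks or none, while the adult list was dense in the fuller bin. From 2100001 to 2200000 lay the fullest bin of all 3 red cell lists, with 8 HD3, 13 embryonic and 32 adult peaks beside 19 fibroblast peaks. The bin from 400001 to 500000 had 4 HD3, 5 embryonic, 22 adult and 33 fibroblast peaks. Bins without any peak were common in some lists, with 36 of 81 in HD3 erythroblasts, 31 in embryonic cells, 20 in adult cells and 12 in fibroblasts, while 7 bins were empty in all 4 lists and 36 had a peak in every list.

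The uneven spread led to a split of the chromosome at 2.3 Mb, which was chosen after the bin counts were seen and is used only to describe them. In the first 2.3 Mb lay 23 HD3 peaks, 44 embryonic peaks, 215 adult peaks and 408 fibroblast peaks. These were 19.0% of the HD3 peaks on the chromosome (95% Wilson interval 13.0% to 26.9%), 24.4% of the embryonic peaks (18.7% to 31.2%), 58.9% of the adult peaks (53.8% to 63.8%) and 80.2% of the fibroblast peaks (76.5% to 83.4%). The first 2.3 Mb therefore held most peaks of the adult and fibroblast lists and the smaller part of the HD3 and embryonic lists. The adult majority depends on the stretch from 2 to 2.3 Mb: the first 2 Mb alone held 11.6% of HD3, 14.4% of embryonic, 41.4% of adult and 74.5% of fibroblast peaks.

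The densities there were 10.0 peaks per Mb in HD3 erythroblasts, 19.1 in embryonic cells, 93.5 in adult cells and 177 in fibroblasts. After 2.3 Mb they were 17.0, 23.54, 25.97 and 17.5 peaks per Mb in the same order. The adult and fibroblast lists were thus sparser after the split, and the HD3 and embryonic lists denser. From 2 to 2.3 Mb alone, however, the HD3 and embryonic lists had 30 and 60 peaks per Mb. In number of peaks, the adult list had 4.89 times the embryonic list in the first 2.3 Mb and 1.10 times after it. The fibroblast list had 9.27 times the embryonic list before the split and 0.743 times after it. The excess of adult and fibroblast over embryonic peaks therefore lay mainly in the first 2.3 Mb, a region that these counts picked out.

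A cluster was defined as a run of at least 5 peaks of a list whose neighbouring summits lay at most 10 kb apart. HD3 erythroblasts had 1 cluster, embryonic red blood cells 2, adult red blood cells 15 and fibroblasts 20. These counts depend on the definition: a gap of 20 kb gave 4, 10, 21 and 14 clusters in the same order, and a gap of 5 kb gave 0, 2, 9 and 29. With only peaks of a −log10 q of 10 or more there were 0, 2, 8 and 11. Clusters held 6.61% of the HD3 peaks, 11.7% of the embryonic peaks, 43.8% of the adult peaks and 68.8% of the fibroblast peaks on the chromosome, against 1.68%, 9.26%, 20.5% and 19.5% over the whole genome. All 20 fibroblast clusters and 12 of the 15 adult clusters began in the first 2.3 Mb. On chromosome 26 the numbers of clusters were 0, 8, 8 and 2 in the same order, and on chromosome 28 they were 0, 4, 7 and 4. Those of chromosome 26 held 0%, 27.1%, 33.8% and 13.0% of its peaks, and those of chromosome 28 held 0%, 10.1%, 26.6% and 32.0%.

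The fullest fibroblast cluster had 51 peaks between the summits at 639717 and 730360. This 90.6 kb span also held 16 adult peaks and no HD3 or embryonic peak. A cluster of 46 fibroblast peaks ran from 441313 to 529869, over which lay 5 HD3, 7 embryonic and 30 adult peaks. Its peaks were among the stronger of the fibroblast list, with a median rank percentile by fold enrichment of 81.1, where 100 is the strongest peak of the list, and 17 of them were in the top 10% of the list. The cluster of 27 fibroblast peaks from 550041 to 610885 had a median percentile of 85.7, with 11 peaks in the top 10%. Other fibroblast clusters were weak for their list, such as 6 peaks from 1083681 to 1103086 with a median percentile of 30.8. Number and strength did not go together throughout, since the cluster of 51 peaks had a median percentile of 65.2. A cluster of 12 peaks from 1443383 to 1470764 had 82.6.

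The only HD3 cluster, 8 peaks from 2166344 to 2193038, lay at a place where all 4 lists had a cluster. The embryonic list had 13 peaks there from 2165239 to 2193042, the adult list 23 from 2165219 to 2197436 and the fibroblast list 14 from 2165597 to 2191578. The summits of the adult cluster were 843 bp apart at the median, the closest of any cluster on the chromosome. Over the span of the adult cluster the 4 lists merged into 28 regions, of which 5 had a peak in all 4 lists and 12 in a single list. Most of these regions were thus not common to all lists. Regions in all 4 lists made up 10.1% over the genome and 6.97% on chromosome 27, and those in a single list 62.8% and 64.6%. The place was singled out for a cluster in every list, which favours shared regions, so its counts are not compared with these shares. A further pair of clusters lay around 5.7 Mb, with 8 embryonic peaks from 5716382 to 5747078 and 6 adult peaks from 5716356 to 5745655. Their peaks were wide, with medians of 418 bp in embryonic and 476 bp in adult cells, and the adult span held 4 HD3 and 3 fibroblast peaks too. The adult list also had 8 peaks within 9.46 kb close to the last position of the lists, from 8067288 to 8076750.

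Neighbouring summits in the first 2.3 Mb were 13237 bp apart at the median in HD3 erythroblasts, 4700 bp in embryonic cells, 3475 bp in adult cells and 2278 bp in fibroblasts. After 2.3 Mb the medians were 21433, 14047, 13251 and 34335 bp. Fibroblast peaks were thus the closest together before the split and the farthest apart after it. Distances of at most 1 kb made up 32.9% of 407 neighbour distances in fibroblasts in the first 2.3 Mb and 7.0% of 100 after it. In adult cells they made up 23.4% of 214 and 14.8% of 149, in embryonic cells 20.9% of 43 and 10.4% of 135, and in HD3 erythroblasts 9.09% of 22 and 7.22% of 97. Over the genome these shares were 6.70% in HD3, 15.7% in embryonic, 15.8% in adult and 11.2% in fibroblast lists. On chromosome 26 they were 5.45%, 13.1%, 8.84% and 8.41% in this order, and on chromosome 28 they were 2.86%, 6.57%, 7.56% and 11.3%.

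**Figure D2:**
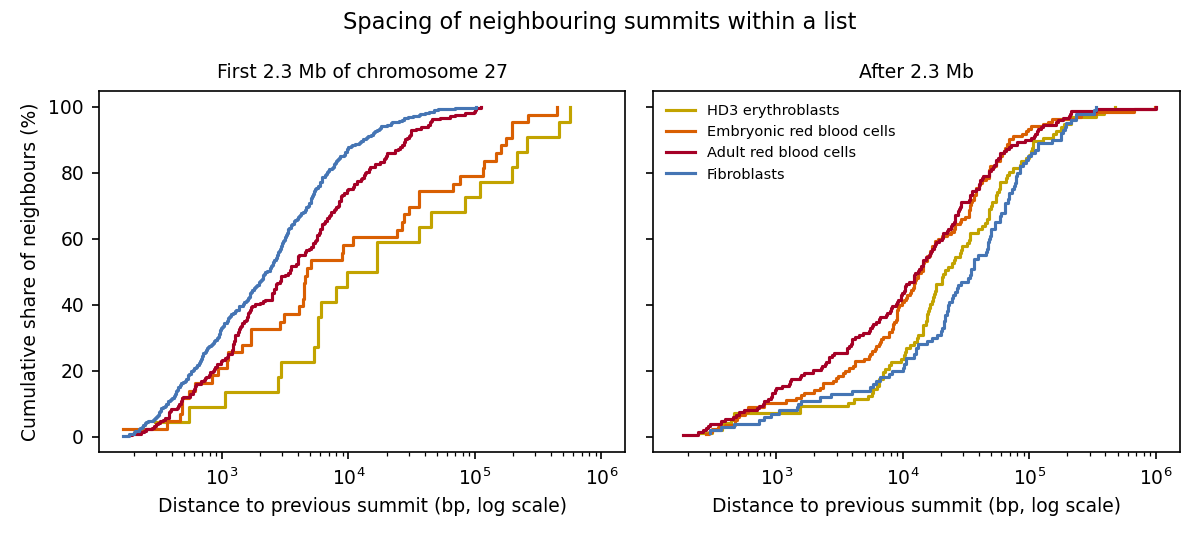
Cumulative share of neighbouring summits within a list by their distance in bp (log axis), for the first 2.3 Mb of chromosome 27 (left) and the rest (right), with a line for each cell type. The fibroblast line lies farthest to the left in the first 2.3 Mb, where its median is 2278 bp, and to the right of both red blood cell lines after it, where its median is 34335 bp.

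To see which sites recur between cell types, overlapping peaks of the 4 lists were joined into union regions, and it was recorded which lists had a peak in each. Chromosome 27 gave 746 regions, chromosome 26 gave 304, chromosome 28 gave 306 and the genome 31360. On chromosome 27, 52 regions had a peak in all 4 lists, which is 7.0% (95% Wilson interval 5.36% to 9.03%), beside 9.21% on chromosome 26, 15.03% on chromosome 28 and 10.1% over the genome. Regions with a peak in a single list made up 64.6% (61.1% to 68.0%) on chromosome 27, 53.3% on chromosome 26, 49.02% on chromosome 28 and 62.8% over the genome. Fibroblasts alone accounted for 306 regions or 41.0% (37.5% to 44.6%), beside 17.4% on chromosome 26, 16.3% on chromosome 28 and 32.4% over the genome. Fibroblast-only regions were thus the most common pattern on chromosome 27 by number.

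The next pattern joined adult red blood cells with fibroblasts and left out both earlier red cell types. It held 119 regions or 16.0% (13.5% to 18.8%) on chromosome 27, against 4.1% over the genome, 1.97% on chromosome 26 and 4.90% on chromosome 28. Adult cells alone had 113 regions or 15.1% (12.8% to 17.9%), against 8.76% over the genome, 10.2% on chromosome 26 and 10.8% on chromosome 28. These 3 patterns, each with a fibroblast or an adult peak and neither an HD3 nor an embryonic one, made up the larger part of the 746 regions.

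Patterns that follow the red cell lineage were less frequent. Regions of the 3 erythroid lists without fibroblasts numbered 27 or 3.62% (2.499% to 5.21%), against 5.01% over the genome, 12.8% on chromosome 26 and 11.8% on chromosome 28. Embryonic and adult cells without the other lists shared 29 regions or 3.89% (2.72% to 5.53%), against 4.69% over the genome, 9.87% on chromosome 26 and 11.1% on chromosome 28. Embryonic cells alone had 42 regions or 5.63%, against 9.81% over the genome, 20.4% on chromosome 26 and 18.6% on chromosome 28. HD3 erythroblasts alone had 21 or 2.82%, against 11.9% over the genome, 5.26% on chromosome 26 and 3.27% on chromosome 28. The HD3-only share was thus below that of the genome on all 3 small chromosomes. The combination of HD3 and embryonic cells only held 5 regions, or 0.670%, against 3.72% over the genome, 5.59% on chromosome 26 and 3.92% on chromosome 28.

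**Figure D3:**
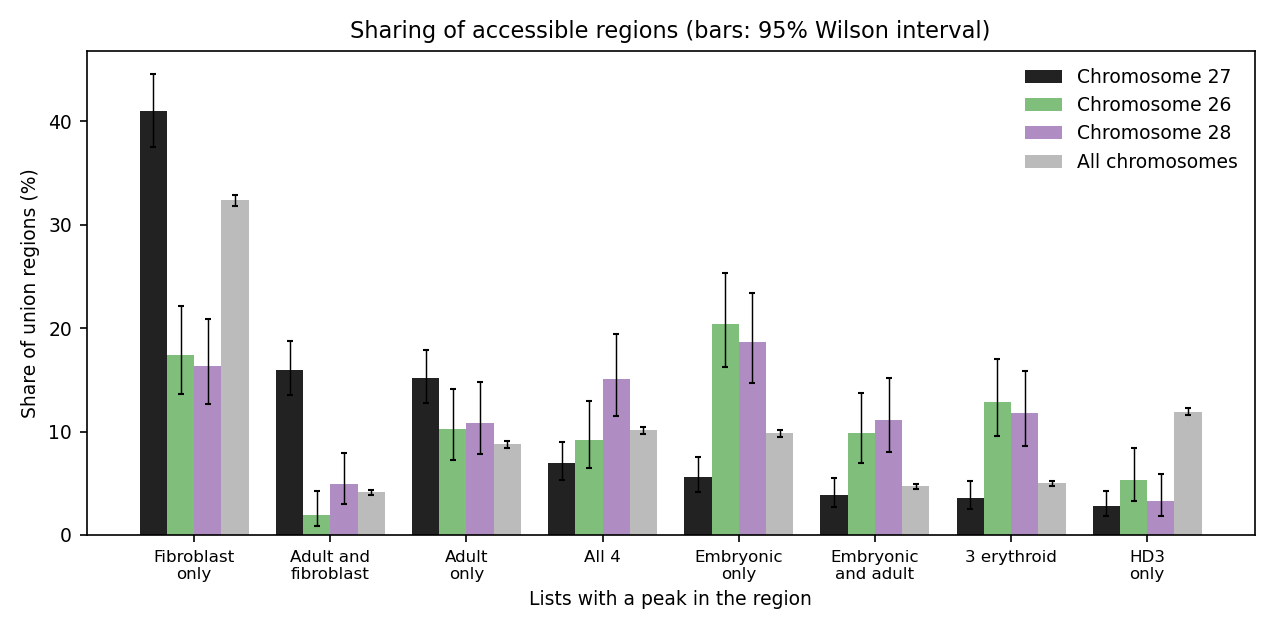
Share of union regions (%) with a peak in the named lists and in no other, for chromosomes 27, 26 and 28 and for all chromosomes; error bars are 95% Wilson intervals over regions. The fibroblast-only share is 41.0% on chromosome 27 and 17.4% and 16.3% on chromosomes 26 and 28, and the share of adult red blood cells with fibroblasts is 16.0% on chromosome 27 and below 5% on the others.

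These patterns also differed along the chromosome. The first 2.3 Mb held 496 union regions, of which 269 (54.2%) were of fibroblasts only, 111 (22.4%) of adult cells and fibroblasts and 13 (2.62%) of all 4 lists. After 2.3 Mb there were 250 regions, of which 37 (14.8%) were of fibroblasts only, 8 (3.20%) of adult cells and fibroblasts and 39 (15.6%) of all 4 lists. A further 25 of these 250 regions (10.0%) had a peak in the 3 erythroid lists without fibroblasts, against 2 of 496 (0.403%) before the split. Of the regions after 2.3 Mb, 85.2% had a peak in at least 1 erythroid list, beside 82.6% on chromosome 26, 83.7% on chromosome 28 and 45.8% in the first 2.3 Mb. Over the genome this share was 67.6%. The rest of the chromosome thus lay near its neighbours and, like them, above the genome. The first 2.3 Mb lay below all of these, but its parts differed. The share was 37.8% of 421 regions in the first 2 Mb and 90.7% of 75 regions from 2 to 2.3 Mb. The low share therefore came from the first 2 Mb, and the stretch from 2 to 2.3 Mb lay above the rest. Fibroblast-only regions made up 62.2% in the first 2 Mb and 9.33% from 2 to 2.3 Mb. The split was chosen after the bin counts were seen, those of fibroblasts among them, so these differences are descriptions.

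Overlap by at least 1 bp was also counted over the peaks of each list, where it is bounded by how many peaks the other list has there. In the first 2.3 Mb, 63.7% of 215 adult peaks overlapped a fibroblast peak (95% Wilson interval 57.1% to 69.9%) and 14.4% an embryonic peak (10.3% to 19.7%). After 2.3 Mb, 37.3% of 150 adult peaks overlapped a fibroblast peak (30.0% to 45.3%) and 62.0% an embryonic peak (54.0% to 69.4%). Over the genome these shares of adult peaks were 46.7% and 62.6%. They were 30.4% and 73.6% on chromosome 26, and 40.5% and 72.3% on chromosome 28. The first 2.3 Mb held 44 embryonic and 408 fibroblast peaks, so few adult peaks there could meet an embryonic peak. Taken from the other side, an adult peak was met by 68.2% of 44 embryonic peaks before the split and 69.1% of 136 after it. For HD3 peaks these shares were 69.6% of 23 and 69.4% of 98. The shares of embryonic and HD3 peaks that met an adult peak thus hardly differed between the 2 stretches. Over the genome they were 57.1% of embryonic and 43.1% of HD3 peaks. On chromosome 26 these shares were 56.8% and 64.0%, and on chromosome 28 they were 63.3% and 77.4%. Of the fibroblast peaks, 32.8% of 408 overlapped an adult peak before the split and 56.4% of 101 after it, beside 30.7% over the genome. On chromosomes 26 and 28 this fibroblast share was 42.6% and 56.8%. HD3 peaks were few in the first 2.3 Mb, and 18 of 23 overlapped an embryonic peak and 18 of 23 a fibroblast peak. The 95% Wilson interval of each of these shares was 58.1% to 90.3%. After 2.3 Mb, 72.4% of 98 HD3 peaks overlapped an embryonic and 48.0% a fibroblast peak. Over the genome, 58.5% of HD3 peaks overlapped an embryonic and 42.2% a fibroblast peak. These shares were 79.3% and 32.4% on chromosome 26, and 90.6% and 44.3% on chromosome 28.

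The 119 regions of adult cells and fibroblasts were compared for position and strength. Their adult and fibroblast summits lay 21.0 bp apart at the median, and at most 50 bp apart in 95 regions. The adult peaks had a median rank percentile of 41.4 in the adult list and the fibroblast peaks a median of 79.8 in the fibroblast list. In 99 of the 119 regions the percentile was higher in fibroblasts. Each percentile is relative to its own list, of 11395 adult and 17681 fibroblast peaks, so this count compares no signal between cell types. It was not made for this pattern on other chromosomes. Over these regions the 2 percentiles had a Spearman correlation of 0.628, given as a description, since the regions are neighbours along the same DNA. In the 52 regions of all 4 lists, the summits of the lists spread over 72.5 bp at the median. The rank correlations there were 0.455 between embryonic and adult cells, 0.409 between HD3 and adult cells and 0.386 between HD3 and embryonic cells. With fibroblasts they were 0.349 for embryonic cells, 0.324 for HD3 erythroblasts and 0.161 for adult cells.

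Peak width was taken as the length of the called interval. On chromosome 27 the median was 193 bp in HD3 erythroblasts (quartiles 122 and 277 bp), 211 bp in embryonic cells (131 and 303 bp), 169 bp in adult cells (121 and 263 bp) and 133 bp in fibroblasts (106 and 198 bp). On chromosome 26 the medians were 169, 221, 183 and 139 bp in this order, and on chromosome 28 they were 189, 233, 212 and 145 bp. The interquartile ranges overlapped between the 3 chromosomes in every list. Within chromosome 27, the HD3 median was 108 bp in the first 2.3 Mb and 214 bp after it, the embryonic median 129 and 226 bp, the adult median 156 and 204 bp and the fibroblast median 131 and 139 bp. Peaks of the first 2.3 Mb were thus narrower at the median in all 4 lists, least so in fibroblasts.

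**Figure D4:**
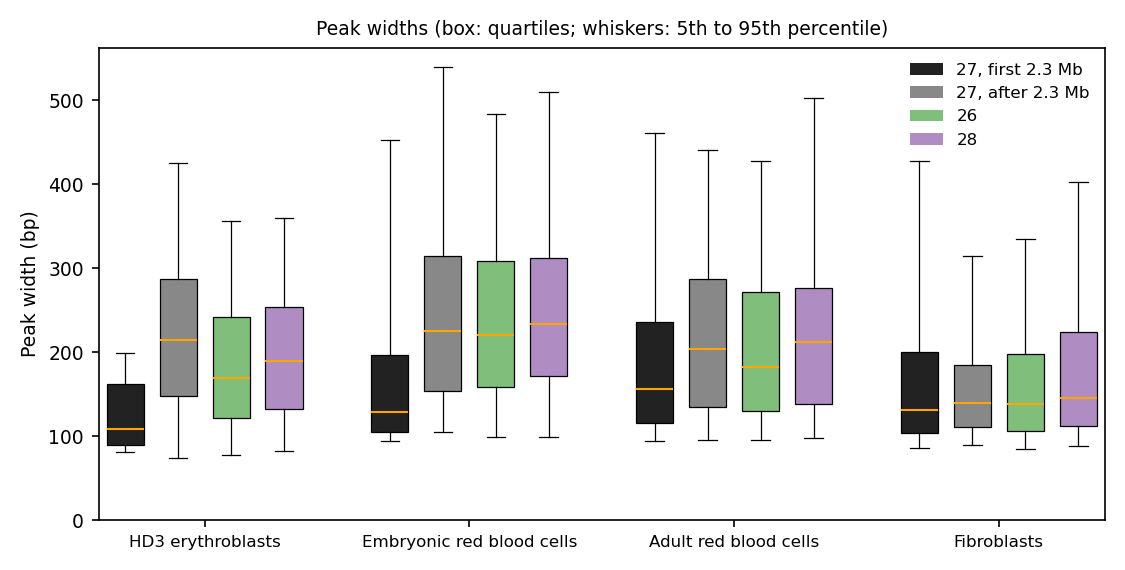
Peak width (bp) by cell type for the first 2.3 Mb of chromosome 27, the rest of chromosome 27, chromosome 26 and chromosome 28; boxes show medians and quartiles and whiskers the 5th and 95th percentiles. The boxes for the first 2.3 Mb sit lowest in HD3 erythroblasts and embryonic and adult red blood cells, with medians of 108, 129 and 156 bp, while the 4 fibroblast medians lie between 131 and 145 bp.

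Sharing and width went together in the red cell lists. In HD3 erythroblasts the peaks of chromosome 27 in all 4 lists had a median width of 232 bp and those of HD3 alone 136 bp. In embryonic cells these medians were 286 and 137 bp, in adult cells 294 and 147 bp, and in fibroblasts 159 and 124 bp. Over the genome they were 223 and 149 bp in HD3, 341 and 156 bp in embryonic, 285 and 136 bp in adult and 196 and 129 bp in fibroblast lists. The order of widths was thus not particular to chromosome 27. Within the first 2.3 Mb, embryonic peaks of 2 or 3 lists were the widest, at 170.5 bp beside 124.5 bp in all 4 lists and 109 bp alone. In rank, too, peaks of all 4 lists lay above those of a single list. Peaks in all 4 lists had a median percentile by fold enrichment of 66.2 in HD3, 65.3 in embryonic, 74.5 in adult and 74.1 in fibroblast lists, against 35.6, 22.2, 13.6 and 45.4 for peaks of a single list. Over the genome these medians were 63.7, 80.5, 78.8 and 71.4, against 44.3, 24.4, 26.2 and 42.0. Chromosomes 26 and 28 had the same order in every list, so it was not particular to chromosome 27. Fibroblast peaks of 2 or 3 lists on chromosome 27 had a median percentile of 78.0 and a median width of 162.5 bp.

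Column 7 of the lists holds the authors' fold enrichment of each peak at its summit, which depends on the depth and background of a library and was used only for ranks within a list. The median percentile of the chromosome 27 peaks was 45.1 in HD3 erythroblasts, 46.7 in embryonic cells, 39.3 in adult cells and 56.5 in fibroblasts. On chromosome 26 it was 40.0, 40.5, 53.0 and 50.1, and on chromosome 28 it was 47.1, 46.3, 54.3 and 58.9. In adult cells the median of chromosome 27 thus lay below both neighbours. Of the 121 HD3 peaks 6 were in the top 10% of their list (4.96%, beside 10% of all peaks by definition), of the 180 embryonic peaks 6 (3.33%, beside 9.99%), of the 365 adult peaks 14 (3.84%, beside 10%) and of the 509 fibroblast peaks 91 (17.9%, 95% Wilson interval 14.8% to 21.4%, beside 10%). On chromosomes 26 and 28 these shares were 6.31% and 3.77% in HD3, 3.12% and 4.02% in embryonic, 6.08% and 9.83% in adult and 6.48% and 9.60% in fibroblast lists. The HD3, embryonic and adult shares were thus below 10% on all 3 chromosomes, and the fibroblast share was above 10% on chromosome 27 only. Of the 91 fibroblast peaks of chromosome 27, 86 lay in the first 2.3 Mb. There, 34 were of fibroblasts alone and 46 of regions shared with 1 or 2 other lists.

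The stretch from 2 to 2.3 Mb differed from the 2 Mb before it. It held 9 HD3, 18 embryonic, 64 adult and 29 fibroblast peaks, which is 30, 60, 213 and 96.7 peaks per Mb. From 0 to 2 Mb the lists had 7, 13, 75.5 and 190 peaks per Mb in the same order. The HD3, embryonic and adult lists were thus denser from 2 to 2.3 Mb, and the fibroblast list was sparser. Of the 75 union regions from 2 to 2.3 Mb, 37 (49.3%) were of adult cells only, against 31 of 421 (7.36%) in the first 2 Mb. The adult peaks there were weak by fold enrichment, with a median percentile of 10.6, and 32 of 64 were in the bottom 10% of the adult list. By −log10 p their median percentile was 33.1, and 53 of 64 ranked lower by fold enrichment than by −log10 p. The 4 adult clusters from 2054312 to 2256954 had median percentiles of 8.01, 5.76, 18.1 and 1.19 by fold enrichment and of 22.9, 13.2, 56.1 and 12.5 by −log10 p. The 29 fibroblast peaks in this stretch had a median percentile of 26.1 by fold enrichment and of 60.6 by −log10 p, 11 of them were in the bottom 10% of their list, and 22 ranked lower by fold enrichment. Most adult and fibroblast peaks of this stretch thus ranked lower by fold enrichment. The 18 embryonic peaks had medians of 66.5 by fold enrichment and 56.4 by −log10 p, and the 9 HD3 peaks 43.2 and 46.9. From 0 to 2 Mb, 38 of 151 adult and 156 of 379 fibroblast peaks ranked lower by fold enrichment. After 2.3 Mb, 74 of 150 adult and 11 of 101 fibroblast peaks did. So did 80 of 98 HD3 and 105 of 136 embryonic peaks there. Among these stretches, most adult and most fibroblast peaks ranked lower only from 2 to 2.3 Mb. On chromosome 26, 52 of 111 HD3, 134 of 192 embryonic, 59 of 148 adult and 20 of 108 fibroblast peaks did. On chromosome 28, 75 of 106 HD3, 139 of 199 embryonic, 80 of 173 adult and 34 of 125 fibroblast peaks did. This count was not made over whole lists, so how usual such shares are in a list is not known. In the bottom 10% were 18 adult and 28 fibroblast peaks from 0 to 2 Mb, and 18 and 6 after 2.3 Mb.

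**Figure D5:**
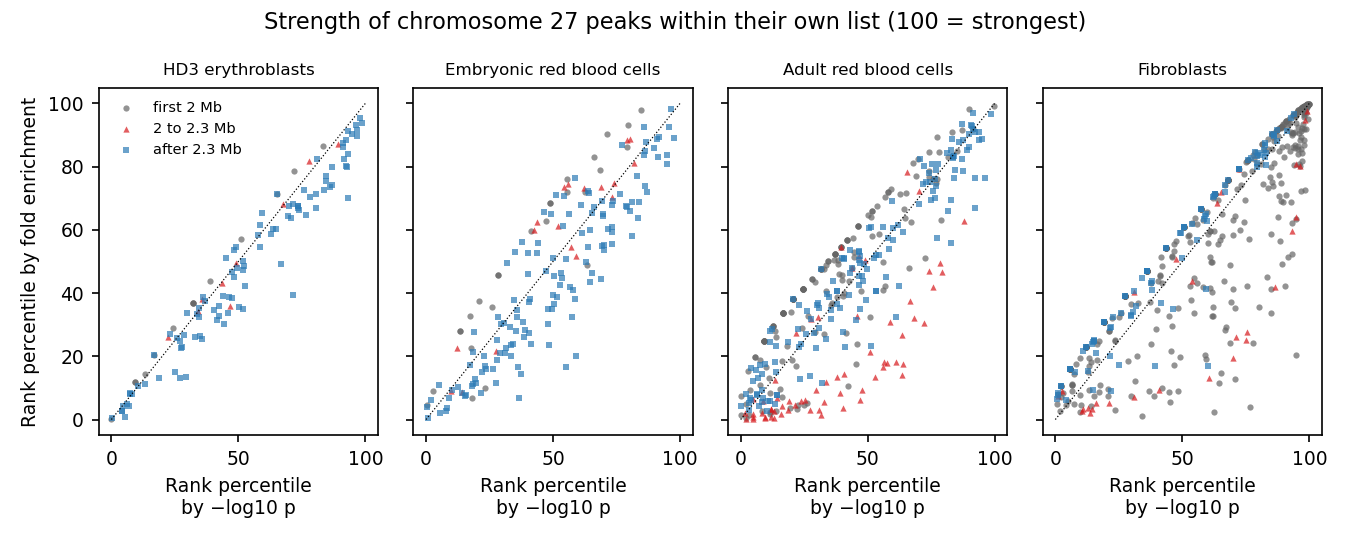
Rank percentile of each chromosome 27 peak within its own list by fold enrichment (vertical) and by −log10 p (horizontal), for each cell type; circles lie in the first 2 Mb, triangles from 2 to 2.3 Mb and squares after 2.3 Mb, and the dotted line marks equal ranks. In adult red blood cells 53 of 64 triangles lie below the line, with a median of 10.6 by fold enrichment and 33.1 by −log10 p.

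Single sites were named by rank. Regions with a peak in every list were ordered by the weakest of their 4 ranks, which is the largest rank number. The 3 foremost lay after 2.3 Mb. The first of them, from 6511347 to 6511817 in adult cells, had rank 718 in HD3 erythroblasts, 2052 in embryonic cells, 1335 in adult cells and 1848 in fibroblasts. Another, from 3761378 to 3761708 in adult cells, ranked 2072 in HD3, 1373 in embryonic, 379 in adult and 2121 in fibroblast lists. The last, from 6500774 to 6501126 in adult cells, ranked 1012, 2152, 1017 and 596 in the same order. No region of the chromosome was in the top 10% of all 4 lists, while 21 of the 52 regions with a peak in every list were in that of at least 1 list. These counts were not made on other chromosomes or over the genome, so they are not given as a trait of chromosome 27.

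The strongest site of the 3 erythroid lists without a fibroblast peak lay from 6048938 to 6049124 in adult cells. It had rank 1023 in HD3 erythroblasts, 2065 in embryonic cells and 2399 in adult cells. The strongest site of embryonic and adult cells only lay in the first 2 Mb, from 1960935 to 1961378 in adult cells, with rank 1723 in embryonic and 1940 in adult cells.

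Among peaks of a single list, the fibroblast list had the highest ranks: 19 for the peak from 274553 to 274673, 85 for that from 1459454 to 1459669 and 95 for that from 1196568 to 1196856. All 3 lay in the first 2.3 Mb. The adult list had ranks 2404, 2890 and 3486, with the foremost from 7109835 to 7110128. The embryonic list had ranks 1648, 2635 and 3618, with the foremost from 8074813 to 8074892, a peak of 80 bp close to the last position of the lists. The HD3 list had ranks 3234, 4255 and 4671, with the foremost from 5290281 to 5290433. In the top 10% of their list were 0 of 21 HD3, 0 of 42 embryonic and 0 of 113 adult peaks of a single list, and 34 of 306 fibroblast peaks (11.1%). Over the genome such peaks made up 8.67% of 3737 in HD3, 0.943% of 3076 in embryonic, 0.947% of 2746 in adult and 4.11% of 10148 in fibroblast lists. Chromosomes 26 and 28 also had 0 in each red cell list.

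The strongest adult peak of the chromosome, from 1018082 to 1018275, was shared with fibroblasts and had rank 87 of 11395 with a fold enrichment of 29.6 and a −log10 q of 405. It stood in an adult cluster of 11 peaks, from 1002264 to 1019242, whose median percentile was 3.76 by fold enrichment and 22.2 by −log10 p. By fold enrichment the cluster thus joined 1 of the strongest peaks of the list with many of the weakest. The peak from 64999 to 65361 in adult cells ranked 208 there and 36 in fibroblasts, where it ran from 65002 to 65363. The strongest HD3 peak, from 5119533 to 5119850, had rank 543 and the strongest embryonic peak, from 7990459 to 7990934, had rank 243. Both were in regions of all 4 lists and after 2.3 Mb.

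The names of the peaks carry running numbers with gaps, so numbers between the first and last kept peak of a chromosome can be counted. On chromosome 27, 71.6% of 169 such numbers were kept in HD3 erythroblasts, 82.6% of 218 in embryonic cells, 75.3% of 485 in adult cells and 96.6% of 527 in fibroblasts. Over the genome the shares were 59.7%, 84.3%, 71.3% and 93.3%. In the first 2.3 Mb they were 67.6% of 34 numbers in HD3, 88.0% of 50 in embryonic, 77.1% of 279 in adult and 98.3% of 415 in fibroblast lists. On chromosome 26 they were 66.9%, 86.1%, 85.5% and 88.5% in the same order, and on chromosome 28 they were 79.7%, 83.6%, 93.0% and 93.3%. The kept share on chromosome 27 was lowest in the HD3 list, which had the fewest peaks there, and highest in the fibroblast list, which had the most. The adult list kept a smaller share there than the embryonic list, and a smaller share than it kept on chromosomes 26 and 28. What the gaps stand for is not stated, and their part in the peak numbers was not tested. In the first 2.3 Mb the ranges of running numbers came in the same order of lists as the kept peaks. Whether such a range counts peaks called before a removal is not known.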

How the data were processed

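ATAC-seq peak lists of 4 chicken cell types were used, 1 list for each. Each library began with 150000 cells, whose nuclei met Tn5 during 30 min before 10 cycles of PCR, per the labels' protocols. Bowtie2 2.3.5, SAMtools 1.9, MACS2 2.1.2 and the build GRCg6a are named in the submitters' processing notes, without their settings. Whether Tn5 offsets were corrected is not given in the sources used here. The deposited lists give for each peak a fold enrichment (a ratio of signal to local background), a −log10 p, a −log10 q and a display score, which equalled 10 times the −log10 q, cut to a whole number, in 100% of peaks. The lowest deposited −log10 q was 2.01. Summit offsets in bp are also the authors'.

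Starts, which count from 0 in the deposited lists, were written from 1. Peaks overlapping by at least 1 bp were merged, and regions were placed by their midpoint and peaks by their summit. Chromosome lengths are the last peak end in any list. Ranks by fold enrichment cover the whole list. Named peaks were the 3 strongest of each list without overlap elsewhere, the best-ranked shared regions, the fullest bins and the fullest clusters. The strongest peak of each list, clusters of other sizes and the split at 2.3 Mb were chosen after the values were seen. Members and definitions were chosen with earlier results of these data known. Alternatives tried were only peaks with −log10 q no lower than 10, lists of equal length, overlap of 50% of the shorter peak, 200 bp around summits, shifted bins, cluster gaps of 5 and 20 kb, ranks by −log10 p and removal of dense bins. The code was checked on simulated lists. Tables were handled in pandas 2.3.3 and NumPy 2.4.6 under Python 3.11.15, intervals came from SciPy 1.17.1, and plots were drawn with matplotlib 3.10.9.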

Additional observations from a re-analysis of the deposited data

How the results depend on the processing

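No paired analysis was possible because the lists, 1 a cell type, carry no values of single samples, and no sample could be left out for the same reason. Of 107 alternative values, 59 stayed within the interval of the result, or within 1.5 times it for counts, and 48 did not. The causes were not tested, except that stricter lists hold fewer peaks by construction. The first 2.3 Mb stayed denser in fibroblasts and adult cells in the stricter lists and in those of equal length. These are parts of the same lists that picked this stretch out, so this adds no support. The adult list is the shortest, so its values with equal length were the same by construction, and they count among the 59.

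When peaks under a −log10 q of 10 were dropped, chromosome 27 had 75 HD3, 143 embryonic, 228 adult and 229 fibroblast peaks. Dense bins numbered 1 in embryonic, 3 in adult and 9 in fibroblast lists, and clusters 0 in HD3, 8 in adult and 11 in fibroblast lists. The share of union regions common to all 4 lists was 5.25%, that of a single list 59.9% and that of fibroblasts only 31.7%. Median widths were 256 bp in HD3, 235 bp in embryonic, 210 bp in adult and 171 bp in fibroblast lists, and the adult median percentile was 32.5. The first 2.3 Mb held 53.5% of adult and 87.8% of fibroblast peaks. In lists of equal length there was 1 dense embryonic bin, 60.7% of regions were in 1 list and 31.5% in fibroblasts only, and the fibroblast median width was 144 bp.

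With bins shifted by 50 kb, 1 embryonic and 6 adult bins were dense. Gaps of 5 kb gave 0 HD3 and 9 adult clusters, and gaps of 20 kb gave 4 HD3 and 10 embryonic clusters. Outside dense bins, the share common to all 4 lists was 14.9%, that of a single list 58.3% and that of fibroblasts only 22.1%, and the median percentile was 45.2 in adult and 46.8 in fibroblast lists. Ranked by −log10 p, the fibroblast median was 61.8, and the adult median from 2 to 2.3 Mb was 33.1.

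Of the alternatives chosen after the data were seen, leaving out the first 2.3 Mb gave 150 adult and 101 fibroblast peaks. Shares were then 15.6% in all 4 lists, 54.0% in 1 list and 14.8% in fibroblasts only. The adult median width was 204 bp, and the median percentile 45.9 in adult and 46.8 in fibroblast lists. The first 2 Mb alone held 11.6% of HD3, 14.4% of embryonic, 41.4% of adult and 74.5% of fibroblast peaks.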
